A study of Mus musculus with 10 samples.

Results

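The 9 genes described here are Trp53, which encodes the transcription factor p53, and 8 of its target genes, Mdm2, Cdkn1a, Ccng1, Plk2, Bbc3, Pmaip1, Trp53inp1 and Phlda3. They were chosen by gene symbol from the 35542 genes of the deposited count table, and all 9 lie on autosomes and were among the 15452 autosomal genes with enough reads to be tested. RNA was sequenced from the frontonasal prominence (FNP), the embryonic tissue that gives rise to the forehead and nose, of FVB/NJ mouse embryos at E10.5. The question behind the comparison was what loss of Smchd1, a chromatin protein that takes part in gene silencing, does to gene expression in this tissue. The MD1 group held 4 libraries from Smchd1 MD1/MD1 embryos, 2 labelled female and 2 labelled male. MD1 is the MommeD1 allele, a nonsense mutation with loss of function, and homozygous females die during embryogenesis according to the study's methods. The WT group held 6 libraries from Smchd1 WT/WT embryos, 3 labelled male and 3 labelled female. Nothing in the labels tells whether each library came from an embryo of its own, and p-values therefore measure only the spread between these samples, which may be technical. Because the tissue was sequenced in bulk, fewer cells of a type and less RNA per cell cannot be told apart.

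The p53 protein is held at a low level in unstressed cells because Mdm2, an E3 ubiquitin ligase that is itself a p53 target, marks it for degradation. DNA damage, disturbed ribosome production and other stresses release p53 from this control, and its targets then slow the cell cycle or start apoptosis. In the embryonic face, excess p53 activity in neural crest cells is known to cause craniofacial defects, and much of the regulation of p53 acts on the protein, which RNA sequencing does not measure.

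Sequences are shown for the 4 genes whose promoters held a stretch resembling the p53 response element consensus, a pair of decamers of 10 letters each, because this is the sequence that p53 is known to bind. The 20 bases of each match are in capitals with 5 flanking bases on each side in lower case, from RefSeq promoter windows on GRCm38.p6 that run from 250 bases before to 50 bases after each RefSeq start. Windows were given for 7 of the 9 genes, Trp53inp1 and Pmaip1 being named only.
Cdkn1a (chr17:29090923-29090952, plus strand): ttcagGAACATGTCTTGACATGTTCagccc
Ccng1 (chr11:40755457-40755486, minus strand): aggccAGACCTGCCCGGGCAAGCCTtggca
Bbc3 (chr7:16309481-16309510, plus strand): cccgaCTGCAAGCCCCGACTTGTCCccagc
Trp53 (chr11:69580279-69580308, plus strand): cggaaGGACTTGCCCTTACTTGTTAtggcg

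The Cdkn1a match departs from the consensus at 1 position and lies 51 to 32 bases before the start of the first of its windows. The Ccng1 match also has 1 mismatch and lies 195 to 176 bases before its start. The matches in the first window of Bbc3, 97 to 78 bases before the start, and in Trp53, 75 to 56 bases before it, have 3 mismatches each. A match had to keep the fixed C and G of each decamer, with up to 3 mismatches at other positions. Stretches with a changed C or G were not counted. No such match was in the windows of Mdm2, Phlda3 or Plk2, or in the other windows of Cdkn1a and Bbc3. This describes only the 300 bases of each window. Among all 32851 promoter windows, 0.067% held a match with up to 1 mismatch and 1.38% held one with up to 3. The consensus is the same on both strands, and a match is a description of sequence, not a site of binding. The limit of 3 mismatches was chosen after the sequences had been read.

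Facts of the libraries bear on every value that follows. Total counts ran between 4195119 (MD1 male replicate 3) and 24125084 (WT male replicate 3). Smchd1 itself was at 78.6 ± 20.8 CPM in MD1 and 246 ± 14.0 CPM in WT (SD over 4 and 6 libraries), which is -1.65 as a log2 fold change (SE 0.15, edgeR adjusted p = 7.46e-04), where CPM is reads of a gene per 1000000 reads of the library, its size scaled by TMM. The library labelled MD1 female replicate 1 went against its sex label, with 88.2 CPM of the Y-linked gene Ddx3y, which was at 0 in MD1 female replicate 4 and in the WT females and at 78.2 to 91.4 CPM in the WT males. Its Xist level, 204 CPM, lay between the 2594 to 2695 CPM of the WT females and the 0.596 to 2.08 CPM of the WT males. MD1 female replicate 4 stood apart from the other 9 libraries: it gave the highest level of 31.5% and the lowest of 30.1% of all genes tested. Its score over 20 hypoxia response genes (mean log2 CPM against the WT mean) was 3.21, against -0.34 to 0.92 in the other MD1 libraries and -0.53 to 0.97 in WT. Its summed erythroid markers were at 19726 CPM, against 2918 to 4191 CPM in WT, and its summed facial mesenchyme markers at 1042 CPM, against 1528 to 2159 CPM in WT. No facial mesenchyme marker was at 0 in any library. MD1 male replicate 3 held the next largest shares, with the highest level of 14.7% and the lowest of 19.3% of all genes tested. Its summed facial mesenchyme markers, at 1487 CPM, were also below every WT library.

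None of the 9 genes passed the threshold of 0.05 between MD1 and WT (edgeR quasi-likelihood test with Benjamini-Hochberg adjustment over all autosomal genes tested), where 0.0777% of all genes tested did. Mdm2 alone had an unadjusted p under 0.05, that is 1 of 9, against 9.79% of all genes tested. DESeq2 and limma-voom also called 0 of the 9, beside 0.33% and 0.0777% of all genes tested. The levels of all 9 genes overlapped between the groups. MD1 without overlap was higher than WT in 0.99% and lower in 1.05% of all genes tested. The fitted log2 fold changes of the 9 ran between -0.29 and 0.43, 6 of them above 0, with a median of 0.11 against 0.0029 over all genes tested. Without MD1 female replicate 4 the median of the 9 was 0.030, and with both libraries labelled MD1 female left out it was -0.017, with 4 of the 9 above 0.

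**Figure D1:**
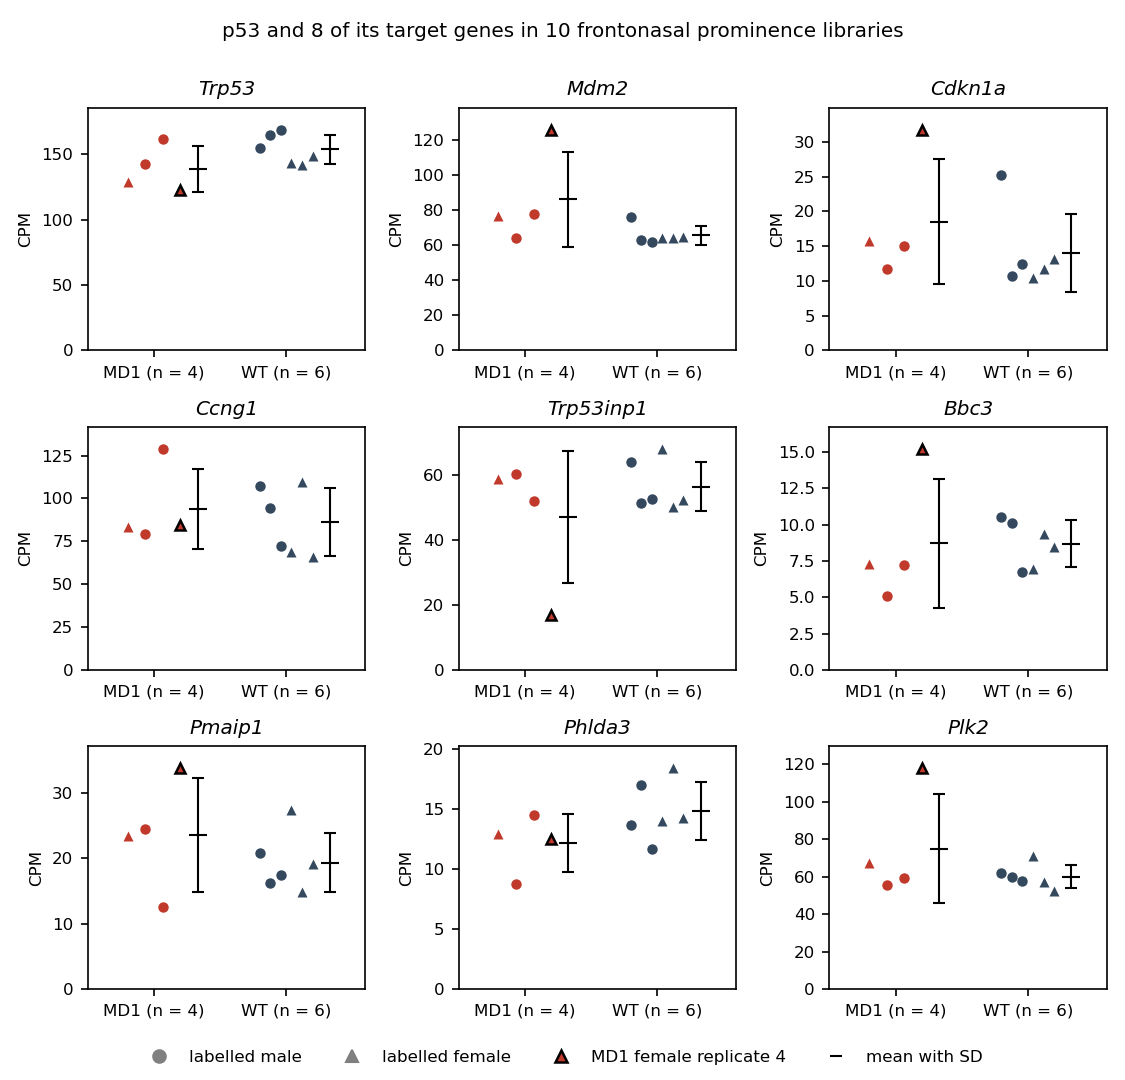
CPM of each gene (vertical axes, starting at 0) in the 4 MD1 libraries on the left and the 6 WT libraries on the right, with circles for libraries labelled male, triangles for those labelled female, a black outline on MD1 female replicate 4, and the mean with SD beside each group. MD1 female replicate 4 was the highest of the 10 libraries in Mdm2, Cdkn1a, Bbc3, Pmaip1 and Plk2 and the lowest in Trp53 and Trp53inp1.

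Trp53 (ENSMUSG00000059552) lies on GRCm38 at chr11:69580359-69591873, on the plus strand, with 7 exon blocks in GENCODE M21. It was at 129, 142, 162 and 122.5 CPM in MD1 replicates 1 to 4, against a lowest, median and highest WT library of 142, 152 and 169 CPM. MD1 replicates 1 and 4, both labelled female, were below every WT library, and the other MD1 libraries lay within the WT range. The group means were 139 ± 17.5 CPM in MD1 and 154 ± 11.1 CPM in WT, with a log2 fold change of -0.15 (SE 0.09, 95% interval -0.35 to 0.05, adjusted p = 0.556), and -0.097 without MD1 female replicate 4. Per length, Trp53 was the most abundant of the 9 genes, at 29.6 ± 5.39 RPKM in MD1 and 34.3 ± 2.79 RPKM in WT, above 92.2% of all genes tested in WT.

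Mdm2 (chr10:117688875-117710758, minus strand, 9 exon blocks), the ubiquitin ligase that restrains p53, was at 76.4, 64.2, 77.8 and 126 CPM in MD1 replicates 1 to 4. The WT libraries had a lowest value of 62.0, a median of 64.0 and a highest of 76.2 CPM. Hence 3 of the 4 MD1 libraries were above every WT library, 2 of them by less than 2 CPM, while MD1 male replicate 2 lay within the WT range. The WT maximum came from WT male replicate 1, and the other 5 WT libraries were between 62.0 and 64.4 CPM. The means were 86.1 ± 27.2 CPM in MD1 and 65.6 ± 5.29 CPM in WT, with a log2 fold change of 0.40 (SE 0.16, 95% interval 0.06 to 0.74, unadjusted p = 0.0254, adjusted p = 0.496). Without MD1 female replicate 4 the log2 fold change of Mdm2 was 0.15 (adjusted p = 0.851).

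Among the targets that act on the cell cycle, Cdkn1a (chr17:29090976-29100727, plus strand, 4 exon blocks) encodes p21, an inhibitor of cyclin-dependent kinases. It was at 15.7, 11.8, 14.98 and 31.8 CPM in MD1 replicates 1 to 4, against a lowest, median and highest WT library of 10.49, 12.1 and 25.3 CPM. MD1 female replicate 4 was above every WT library, and WT male replicate 1 stood above the other 5 WT libraries and the other 3 MD1 libraries. The log2 fold change of Cdkn1a was 0.43 (SE 0.31, 95% interval -0.23 to 1.1, adjusted p = 0.603), 0.04 (adjusted p = 0.989) without MD1 female replicate 4 and 0.67 without WT male replicate 1. Of its exon bases, 273 (7.68%) are shared with AC167363.2 on the opposite strand, and reads of the pair cannot be told apart because the library kit does not mark strand.

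Ccng1 (chr11:40748552-40755311, minus strand, 6 exon blocks), which encodes cyclin G1, was at 83.4, 79.4, 129 and 84.3 CPM in MD1 replicates 1 to 4. In WT its lowest, median and highest values were 65.7, 83.4 and 110 CPM. Here MD1 male replicate 3, the library with the fewest reads, was above every WT library, and MD1 female replicate 4 lay near the WT median. Ccng1 had a log2 fold change of 0.11 (SE 0.18, 95% interval -0.29 to 0.51, adjusted p = 0.823), and -0.064 without MD1 male replicate 3.

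Plk2 (chr13:110395046-110400844, plus strand, 9 exon blocks), a polo-like kinase, was at 67.1, 55.7, 59.2 and 118 CPM in MD1 replicates 1 to 4, against a lowest, median and highest WT library of 52.3, 58.9 and 71.2 CPM. Apart from MD1 female replicate 4, the MD1 libraries were inside the WT range. The log2 fold change of Plk2 was 0.33 (SE 0.19, 95% interval -0.08 to 0.73, adjusted p = 0.542), and 0.02 without MD1 female replicate 4.

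The apoptosis targets were 2 BH3-only proteins, Bbc3 (PUMA) and Pmaip1 (NOXA), which bind and block survival proteins of the Bcl-2 family. Bbc3 (chr7:16308393-16318205, plus strand, 6 exon blocks) was at 7.32, 5.09, 7.25 and 15.2 CPM in MD1 replicates 1 to 4, and its lowest, median and highest WT values were 6.72, 8.92 and 10.54 CPM. MD1 female replicate 4 was above and MD1 male replicate 2 below every WT library. The log2 fold change of Bbc3 was 0.03 (SE 0.27, 95% interval -0.57 to 0.62, adjusted p = 0.976), and -0.40 without MD1 female replicate 4. Bbc3 was also counted from few reads, 30 to 220 per library.

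Pmaip1 (chr18:66458533-66465565, plus strand, 3 exon blocks) was at 23.5, 24.5, 12.6 and 33.8 CPM in MD1 replicates 1 to 4, against 14.9, 18.3 and 27.5 CPM for the lowest, median and highest WT library. The MD1 libraries thus took both the highest and the lowest place among the 10, and the lowest, MD1 male replicate 3, rested on 52 reads. For Pmaip1 the log2 fold change was 0.31 (SE 0.23, 95% interval -0.19 to 0.81, adjusted p = 0.622), 0.12 without MD1 female replicate 4, and 0.50 when MD1 male replicate 3 was left out.

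Trp53inp1 (chr4:11156431-11174379, plus strand, 5 exon blocks) encodes a stress protein that promotes p53 activity and autophagy. It was at 58.8, 60.3, 52.0 and 17.0 CPM in MD1 replicates 1 to 4, against a lowest, median and highest WT library of 50.1, 52.4 and 68.0 CPM. MD1 female replicate 4, which was high in Mdm2, Cdkn1a, Plk2, Bbc3 and Pmaip1, had 30.2% of the WT mean of this target, and the other 3 MD1 libraries lay within the WT range. The log2 fold change of Trp53inp1 was -0.27 (SE 0.27, 95% interval -0.86 to 0.32, adjusted p = 0.712), and 0.03 without MD1 female replicate 4.

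Phlda3 (chr1:135766119-135769136, plus strand, 3 exon blocks), an inhibitor of the kinase AKT, was at 12.9, 8.78, 14.5 and 12.5 CPM in MD1 replicates 1 to 4, against 11.7, 14.1 and 18.4 CPM for the lowest, median and highest WT library. MD1 male replicate 2 was below every WT library and the other 3 MD1 libraries were within the WT range. Phlda3 had a log2 fold change of -0.29 (SE 0.17, 95% interval -0.66 to 0.08, adjusted p = 0.547), -0.31 without MD1 female replicate 4, and -0.17 when MD1 male replicate 2 was left out.

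**Figure D2:**
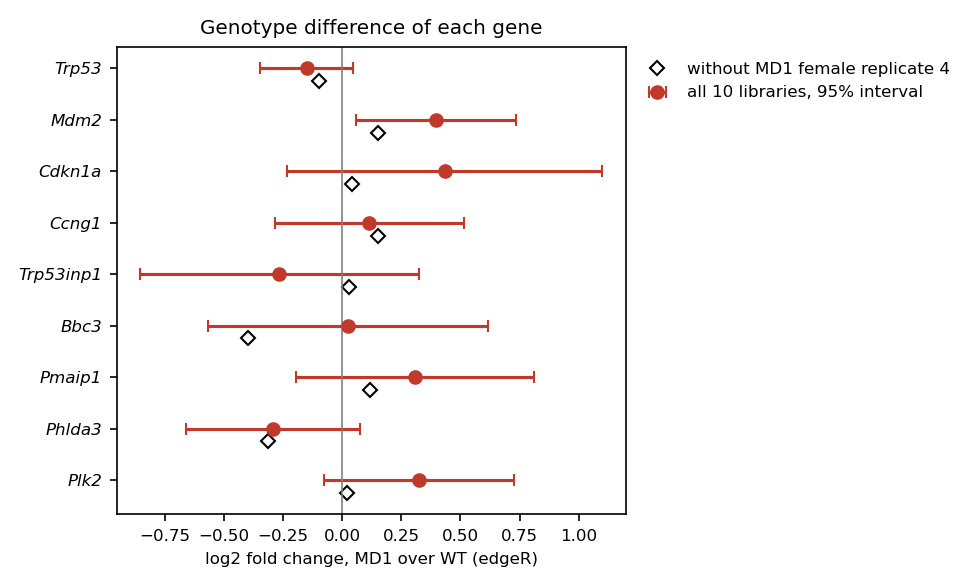
Log2 fold change of MD1 over WT for each gene (horizontal axis) from edgeR with all 10 libraries, with its 95% interval, and the same fold change without MD1 female replicate 4 as open diamonds. With all libraries the interval of Mdm2 alone lies above 0, at 0.06 to 0.74, and its fold change without that library is 0.15.

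Levels per length gave the order of the 9 genes in WT. Trp53 at 34.3 RPKM was followed by Ccng1 at 22.2 ± 4.96 RPKM, and their WT libraries did not overlap. Plk2 (12.1 ± 1.24 RPKM) and Mdm2 (11.6 ± 0.839 RPKM) came next with overlapping ranges, below every WT value of Ccng1. Phlda3 (8.57 ± 1.38 RPKM), Trp53inp1 (7.86 ± 1.02 RPKM) and Pmaip1 (6.38 ± 1.471 RPKM) each overlapped its neighbour in this group. Bbc3 (3.69 ± 0.662 RPKM) and Cdkn1a (3.54 ± 1.39 RPKM) were the lowest and overlapped as well. In MD1, Trp53 and Ccng1 (23.0 ± 6.44 RPKM) again had the highest means, and the order changed within the overlapping sets. Mdm2 (14.2 ± 3.00 RPKM) stood above Plk2 (14.0 ± 3.85 RPKM), Pmaip1 (7.28 ± 2.23 RPKM) above Phlda3 (6.68 ± 1.44 RPKM) and Trp53inp1 (6.41 ± 3.02 RPKM), and Cdkn1a (4.34 ± 1.61 RPKM) above Bbc3 (3.40 ± 1.35 RPKM). Cdkn1a varied more among the WT libraries than 90.2% of all genes tested, by the SD of log2 CPM, whereas the SD of Mdm2 was above that of 30.5% of genes. WT male replicate 1 was at 25.3 CPM of Cdkn1a, with the other WT libraries at 10.49 to 13.2 CPM.

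The pattern within MD1 female replicate 4 ran in both directions over the 9 genes. Its Cdkn1a level was 2.28 times the WT mean, Plk2 1.96 times, Mdm2 1.92 times, and Bbc3 and Pmaip1 1.75 times each. Ccng1 was at 0.975 times, Phlda3 at 0.842 times, Trp53 at 0.798 times and Trp53inp1 at 0.302 times the WT mean in the same library. It held the highest value of 5 of the 9 genes (55.6%) and the lowest of 2 (22.2%), beside 31.5% and 30.1% of all genes tested. WT male replicate 1, which had the highest WT values of Mdm2 and Cdkn1a, also had the highest hypoxia score in WT, 0.97, and MD1 female replicate 1 had a hypoxia score of 0.92. The integrated stress response, a translation-control pathway led by ATF4, had scores of 1.70 in MD1 female replicate 4, 0.90 in MD1 female replicate 1 and 0.69 in WT male replicate 1, and -0.58 to -0.0064 in the other 7 libraries. MD1 male replicate 3, whose Mdm2 level of 77.8 CPM was above every WT library, had scores of -0.34 for hypoxia and -0.58 for the integrated stress response. The part of both responses in the levels of the p53 targets was not tested.

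**Figure D3:**
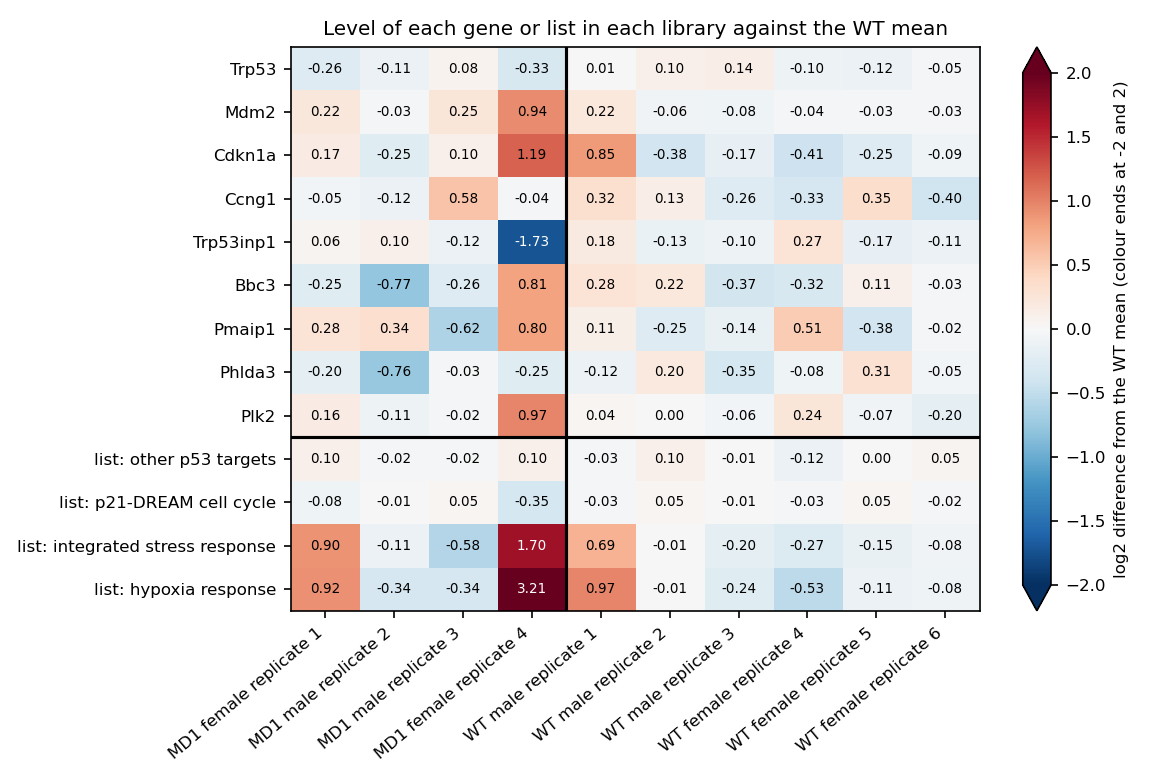
Log2 difference from the WT mean (colour and printed number) of the 9 genes, in rows above the line, and of 4 gene lists below it, for the 4 MD1 libraries on the left and the 6 WT libraries on the right. Gene rows are the log2 ratio of CPM to the mean WT CPM and list rows are mean log2 CPM against the WT mean. In MD1 female replicate 4, Trp53inp1 is at -1.73 and Cdkn1a at 1.19, beside 3.21 for the hypoxia list.

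How the 9 genes varied together over the 10 libraries was tested for 36 pairs, with permutation p-values from 100000 resamples and adjustment over the 36. Mdm2 and Cdkn1a were the 1 pair past the threshold, with Pearson r = 0.88 (two-sided permutation p = 6.90e-04, adjusted p = 0.0248) and Spearman rho = 0.81 (permutation p = 0.00701, adjusted p = 0.252). No pair passed the threshold on rho. Without the 2 libraries farthest from the median of Mdm2, r was 0.85, and without MD1 female replicate 4 and WT male replicate 1, which were highest in Cdkn1a, r was 0.85 over 8 libraries. Within WT alone r was 0.95, and 0.10 over the 5 WT libraries other than WT male replicate 1, so the relation within WT rested on that library. Of the 36 pairs, 10 had an unadjusted p under 0.05 on r. Among them was Mdm2 with Plk2, at r = 0.89 (permutation p = 0.0206, adjusted p = 0.148). That r was 0.40 without the 2 libraries farthest from the Mdm2 median and 0.14 within WT. Another was Trp53 with Pmaip1, at r = -0.73 (permutation p = 0.0162, adjusted p = 0.148). Its r was -0.60 without the 2 libraries farthest from the Trp53 median and -0.30 within WT. The median r over all pairs was 0.11, and -0.021 within WT.

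**Figure D4:**
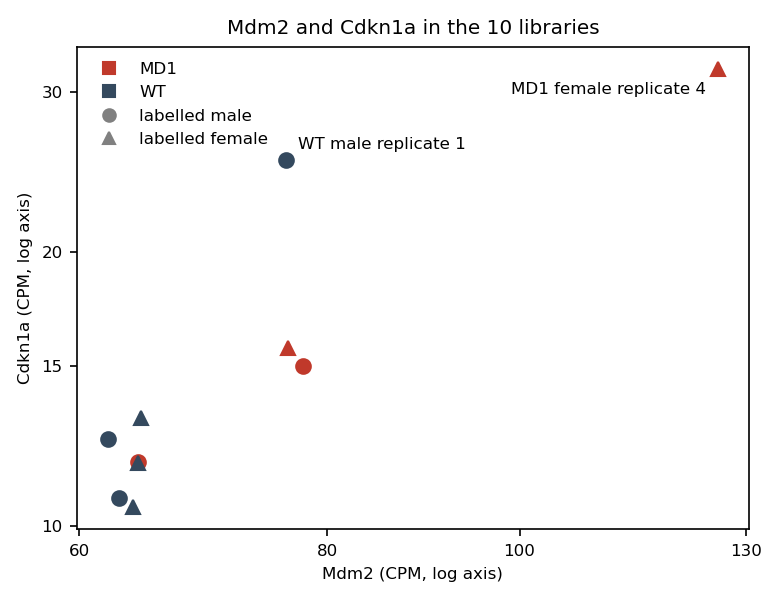
CPM of Mdm2 (horizontal) against CPM of Cdkn1a (vertical), both on log axes, for the 4 MD1 libraries in red and the 6 WT libraries in dark blue, with circles for libraries labelled male and triangles for those labelled female. MD1 female replicate 4 is highest in both, at 126 and 31.8 CPM, and WT male replicate 1 is the highest WT library in both, at 76.2 and 25.3 CPM.

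The effect of genotype was also estimated within each labelled sex. The MD1 arm labelled female held replicate 1, which had Y-linked reads at the level of WT males, and replicate 4, which stood apart from the other libraries, so these contrasts follow the labels and are not a clean comparison of females. Between libraries labelled female the log2 fold change was 0.65 for Mdm2 (SE 0.19, edgeR adjusted p = 0.163), 1.00 for Cdkn1a (SE 0.37, adjusted p = 0.205) and 0.61 for Plk2 (SE 0.20, adjusted p = 0.189). Between libraries labelled male the same genes were at 0.08 (SE 0.19), -0.27 (SE 0.40) and -0.06 (SE 0.21), each with an adjusted p of 0.999. None of the 9 genes passed in either labelled sex, beside 0.0129% of all genes tested in females and 0.0194% in males. At an unadjusted p under 0.05 were 3 of the 9 in females and 0 in males, beside 19.1% and 3.8% of all genes tested. The difference between the labelled sexes, 1.27 for Cdkn1a (SE 0.54, adjusted p = 0.479) and 0.67 for Plk2 (SE 0.30, adjusted p = 0.479), did not pass for any gene tested, and 2 of the 9 had an unadjusted p under 0.05, beside 10.4% of all genes tested. When the library labelled MD1 female replicate 1 was left out, the female arm of MD1 was MD1 female replicate 4 alone, assumed to vary like the other groups, and the difference passed for 5 of the 9 genes, Mdm2, Cdkn1a, Plk2, Bbc3 and Trp53inp1, and for 22.5% of all genes tested. In that fit Trp53inp1 was at -1.77 (adjusted p = 9.64e-04) and Cdkn1a at 1.68 (adjusted p = 0.0275). WT females and WT males did not differ beyond the threshold in any of the 9 genes or in any autosomal gene, with 0 of the 9 and 1.27% of all genes tested at an unadjusted p under 0.05.

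Other genes of the pathway were read from lists. Of 31 further p53 targets 26 were tested, and 0 passed, with 2 at an unadjusted p under 0.05. Their fitted fold changes were above 0 in 14, with a median of 0.0056. Over all genes tested, 9.79% had an unadjusted p under 0.05 and 50.5% a fitted fold change above 0. The lowest p-values in that list were those of Polk, a translesion DNA polymerase, at a log2 fold change of 0.65 (adjusted p = 0.496), Siva1, a pro-apoptotic protein, at -0.22 (adjusted p = 0.502), and Gtse1, which holds p53 in check during G2, at -0.30 (adjusted p = 0.541). Polk was at 17.5, 14.7, 19.6 and 37.1 CPM in MD1 replicates 1 to 4, against 12.4 to 17.4 CPM in WT, so that 3 MD1 libraries were above every WT library. Of these 26 targets, 34.6% were highest and 38.5% lowest in MD1 female replicate 4, beside 31.5% and 30.1% of all genes tested.

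Of 20 p53 regulators and family members 19 were tested, and 0 passed. At an unadjusted p under 0.05 was 1 of the 19, beside 9.79% of all genes tested. The median log2 fold change was 0.09. Mdm4, the partner of Mdm2 that blocks p53 activity, was at 196, 181, 180 and 296 CPM in MD1 replicates 1 to 4 and at 155 to 186 CPM in WT, with a log2 fold change of 0.36 (SE 0.13, adjusted p = 0.496). MD1 replicates 1 and 4 were above every WT library of Mdm4. Chek1, a checkpoint kinase, was at 0.20 (adjusted p = 0.508), and Rpl11, a ribosomal protein that binds Mdm2, at 0.36 (adjusted p = 0.540). Rpl11 was counted at 15.9, 13.6, 12.8 and 29 CPM in MD1 replicates 1 to 4, against 12.9 to 15.8 CPM in WT. Whether these counts hold all reads of the gene was not tested.

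Of the 20 cell cycle genes that p53 lowers through p21 and the DREAM repressor complex, 18 had a fitted fold change below 0. Their median was -0.07, and 0 passed, with 1 at an unadjusted p under 0.05. Over all genes tested, 50.5% were above 0 and 9.79% had an unadjusted p under 0.05. Without MD1 female replicate 4 the count below 0 was 9 of 20 and the median 0.0079. Aurkb, a mitotic kinase, was at 95.3, 105, 101 and 90.9 CPM in MD1 replicates 1 to 4 and at 107 to 124 CPM in WT. It was the 1 of 20 genes in the list whose groups did not overlap, where MD1 was lower without overlap in 1.05% of all genes tested, with a log2 fold change of -0.21 (SE 0.07, adjusted p = 0.496). Cdc20, an activator of the anaphase-promoting complex, was at -0.34 (adjusted p = 0.517) and Plk1, a mitotic kinase, at -0.37 (adjusted p = 0.518), and both were lowest in MD1 female replicate 4.

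Genes whose pattern over the 10 libraries was most like that of the mean of the 8 targets were Slc16a4 (r = 0.96), Ticam2 (0.95), Cars2 (0.94), Siah2 (0.94) and Camk2d (0.94). The genes most like Cdkn1a were Gm44832, Krt19 and Rreb1 (each r = 0.96), and those most like Mdm2 were Slc25a36, Odr4 and Stt3a (each r = 0.99). Each r is over the same 10 libraries, and without MD1 female replicate 4 the r of Slc25a36 with Mdm2 was 0.95 and that of Krt19 with Cdkn1a was 0.90. These are descriptions chosen from all genes tested, without a test.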

How the data were processed

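FNP RNA of 10 libraries was measured. Per the labels and the study's methods, libraries were made with a TruSeq RNA kit, and reads were cut with Trim Galore 0.4.4, mapped by HISAT2 2.0.5 against GRCm38.p6 and quantified in SeqMonk. The deposited files hold raw counts per gene and, in a second table, log2 RPKM values that the authors scaled by library size and length after replacing zeros. The deposited genotype averages, a signal of mean counts and a mean of log2 RPKM, were not used. Strand use during counting was not given in the sources used here.

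Of 35591 table rows, 27 had date-like symbols restored by identifier and 49 repeated an identifier and were dropped. Counts were tested with edgeR 4.0.16 in R 4.3.3 (filterByExpr, TMM, quasi-likelihood test, no covariate, autosomes), with Benjamini-Hochberg adjustment over 15452 genes. Effects within sex came from 1 model with 4 group means. Scores are means of log2 CPM with a prior count of 2. RPKM is the antilog of the deposited value. No 2 libraries had counts within sampling noise of each other (smallest chi-square per degree of freedom 4.14 over 45 pairs). Alternatives used DESeq2 1.42.0 and limma 3.58.1. The edgeR step was tested on simulated data, with log2 fold changes of 1 and 2 set in well-counted genes. It recovered 82% and 98% of them, with 15 false calls in a run of 15246 genes. Smaller changes, such as those fitted for the 9 genes, were not simulated. Correlations used permutation tests. Named genes were the 9 members and, from each other list, those past the threshold or else the 3 with the lowest p; cell type lists were read only by score, summed CPM and markers at 0. The members and lists were chosen with earlier results of these data known.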

Additional observations from a re-analysis of the deposited data

Results flagged for a closer look

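Of the 18 combinations of gene and group among the 9 genes, 4 held a library far from the others by Dixon's criterion, which chance alone meets in about 1 of 20 groups. The criterion was not run over all genes tested, so no share over them stands beside this count, and it is not read as a trait of the 9 genes. Mdm2 in WT male replicate 1 was at 76.2 CPM, with the other WT libraries at 62.0 to 64.4 CPM. Cdkn1a in the same library was at 25.3 CPM, with the other WT libraries at 10.49 to 13.2 CPM. Ccng1 in MD1 male replicate 3 was at 129 CPM, with the other MD1 libraries at 79.4 to 84.3 CPM. Trp53inp1 in MD1 female replicate 4 was at 17.0 CPM, with the other MD1 libraries at 52.0 to 60.3 CPM.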

How the results depend on the processing

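None of the 9 genes passed the threshold under any alternative of the comparison of genotypes that was not split by labelled sex. Within the labelled females without MD1 replicate 1, MD1 female replicate 4 alone was set against WT. Log2 fold changes there ran from -1.74 for Trp53inp1 to 1.43 for Cdkn1a, and they rest on that library. Of 207 alternative fold changes 192 kept their direction. Leaving out 1 library at a time gave ranges of log2 fold change of -0.23 to -0.097 for Trp53, 0.15 to 0.51 for Mdm2, 0.043 to 0.67 for Cdkn1a, -0.064 to 0.20 for Ccng1, -0.41 to 0.030 for Trp53inp1, -0.40 to 0.22 for Bbc3, 0.12 to 0.50 for Pmaip1, -0.37 to -0.17 for Phlda3 and 0.023 to 0.44 for Plk2. Ccng1 was at -0.064 without MD1 male replicate 3, and Trp53inp1 at 0.030 without MD1 female replicate 4. Bbc3 was at -0.40 without MD1 female replicate 4, -0.043 without WT replicate 3 and -0.032 without WT replicate 4. With both libraries labelled MD1 female left out, Cdkn1a was at -0.063, Plk2 at -0.066, Trp53inp1 at 0.0094 and Bbc3 at -0.53. Bbc3 was also at -0.031 with total-count scaling, -0.014 with limma-voom, -0.18 with limma on log2 RPKM with and without the filter, and -0.020 with sex as a covariate. Without MD1 replicate 1, which leaves MD1 female replicate 4 alone in its arm, the difference between the labelled sexes passed for 5 of the 9 genes and 22.5% of all genes tested, against 0 with all libraries. The number of autosomal genes called was 12, and 51 with DESeq2, 29 with the exact test of edgeR, 8 with total-count scaling, 4 and 5 with limma on log2 RPKM, 3 with libraries 1 to 4 alone, 6 without both libraries labelled MD1 female and 4 to 13 with 1 library left out. Limma on unfiltered log2 RPKM moved the median log2 fold change of all genes to 0.28. Cdkn1a, at 0.30, lay above that median, and the rest of the 9 genes, Bbc3 among them, lay below it.

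A fit of libraries 1 to 4 of both genotypes with the replicate number as a block called 0 of the 9 genes and 0 autosomal genes, and put Bbc3 at -0.065. The deviations of same-numbered libraries from their group means correlated at -0.12 to 0.050. Whether such libraries share a litter or a stage was not tested.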

Other observations

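Beside the p53 targets, the hypoxia response list had 19 of 19 fitted fold changes above 0 with a median log2 fold change of 1.62, and 0 genes passed (edgeR, 18 at an unadjusted p under 0.05). Over all genes tested, 50.5% were above 0 and 9.79% had an unadjusted p under 0.05. Without MD1 female replicate 4 the median was 0.26, and 1 gene had an unadjusted p under 0.05, beside 908 of 15560 genes tested. With both libraries labelled MD1 female left out, 5 of 19 were above 0 and the median was -0.11. P4ha1, a collagen prolyl hydroxylase, was at 264, 111, 146 and 1084 CPM in MD1 replicates 1 to 4, against a WT mean of 126 ± 46.1 CPM, with a log2 fold change of 1.67 (adjusted p = 0.496). Higd1a was at 1.34 and Adm, which encodes adrenomedullin, at 3.99 (both adjusted p = 0.496). Of 15 integrated stress response genes 13 were above 0, with a median of 0.67 and 0 past the threshold (2 at an unadjusted p under 0.05), and the median was 0.09 without MD1 female replicate 4 and -0.15, with 3 of 15 above 0, without both libraries labelled MD1 female. Slc7a5 and Vldlr were at 0.67 and 1.43 (both adjusted p = 0.496), and Asns, asparagine synthetase, at 0.69 (adjusted p = 0.508). All 3 were highest in MD1 female replicate 4, at 325, 226 and 215 CPM.

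The scores of lists of other cell types, as the mean of log2 CPM set against WT, are given as values. Endothelium ran from -0.16 to 0.57 in MD1 and -0.18 to 0.15 in WT, macrophages from -0.36 to 0.17 in MD1 and -0.25 to 0.28 in WT, and forebrain neuroepithelium from -0.41 to 0.41 in MD1 and -1.04 to 0.42 in WT. Surface ectoderm and nasal placode ran from -0.038 to 0.50 in MD1 and -0.14 to 0.17 in WT. Erythroid cells ran from -0.33 to 2.26 in MD1 and -0.34 to 0.27 in WT, with the highest score in MD1 female replicate 4. Yolk sac endoderm and liver ran from -1.02 to 4.86 in MD1 and -0.77 to 1.5 in WT, the 4.86 being that of MD1 female replicate 1 by label, and up to 5 of its 7 markers were at 0 in a library. Facial mesenchyme ran from -0.69 to 0.076 in MD1 and -0.19 to 0.36 in WT.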
